A study of Lens culinaris with 18 samples.

Results

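A set of 90 leaf transcripts was higher after 24 h of water deficit and at most 1.25 times its controls after 96 h, while root stayed within 2-fold of its controls. They were picked out of 124151 assembled transcripts of lentil (Lens culinaris, cultivar Sultan, wild type). At an age of 7 days the seedlings went into aerated nutrient solution with 15% polyethylene glycol (PEG 6000, called drought here) or without it (control). Root and leaf were taken at 24 h and 96 h. The groups were leaf 24 h drought, leaf 24 h control, leaf 96 h drought, leaf 96 h control and the same 4 in root, each with 2 biological replicates, 16 libraries in all. PEG lowers the water potential around the root, so it stands for a soil drought only in part, and a leaf library mixes all leaf cells. Fewer cells of a type and less RNA per cell cannot be told apart in such material.

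The members were chosen by measured values of these same libraries. A transcript needed a mean of at least 5 over the leaf libraries and of at least 2 over the root libraries. With 1 added to every value, its lowest leaf 24 h drought library had to reach at least 2 times its highest leaf 24 h control library. Its leaf 96 h ratio of mean drought to mean control could be at most 1.25, and its root ratios had to lie between 0.5 and 2 at both times. Of 12046 transcripts above the level minimums, 694 met the leaf 24 h condition, 229 of these also met the root condition, and 90 met the 96 h limit. The limit of 150 on the list was not reached. The other 139 of the 229 were above the 96 h limit and serve below for comparison. The 90 are ordered by the leaf 24 h ratio, and a place below is the position in that order. All drought to control ratios were used in the choice and are given as descriptions, with no test.

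Plants short of water react within hours, largely through the hormone abscisic acid, which closes the stomata and switches on many genes. Parts of this reaction are transient and subside as tissue water and growth settle to a new state, while other parts last as long as the deficit. Leaves sense a deficit at the root through hydraulic and chemical signals. No gene names stand beside the identifiers in the deposited table and no annotation was used, so the labelled tissues could not be set against marker genes, no function is given to any of the 90 and no sequence is shown.

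Values are TPM (a transcript's share of its library, corrected for length) times a factor for each library. Leaf 96 h drought replicates 1 and 2 summed to 6997679 and 6699075, and root 24 h control replicate 2 to 5832574, while the other 13 libraries summed to 514669 to 943452. The rule leaves out a component of the assembly with 3 transcripts, 1 of them listed at 0 in all libraries except root 24 h control replicate 1; it is called the pair below. It took 81.1%, 76.3% and 92.4% of the libraries with high sums, in the order given, 23.3% of root 24 h control replicate 1 and at most 0.0991% of each other library. The smallest step between values was 0.0583 to 0.0700 in these 3 libraries and at most 0.00943 in the rest, so low values are coarser there. Read depth is unknown.

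At 24 h the 90 transcripts had a median of 34.5 and 45.2 in leaf drought replicates 1 and 2, against 12.6 and 12.8 in leaf control replicates 1 and 2. Every member was separated, as the rule asks, where 42.5% of the 12046 had both drought libraries above both controls and 5.76% had a ratio of at least 2. The ratio of lowest drought to highest control ran from 2.00 to 5.51 with a median of 2.33. It was under 2.5 for 60 members, at least 3 for 16 and at least 4 for 4. The 139 transcripts that stayed above the limit at 96 h had a median of 2.54 and reached 21.8, so the strongest leaf 24 h ratios were not among the 90. The nearest ratios on each side of the 24 h condition were 2.00 inside and 1.996 outside. For root they were 0.513 and 1.97 inside and 0.470 and 2.005 outside at 24 h, and 0.510 and 1.90 inside and 0.498 and 2.05 outside at 96 h. Without leaf 24 h drought replicate 1, 178 transcripts met the rule, 85 of the 90 among them. Without drought replicate 2, 120 met it, and without control replicate 1 or 2, 121 or 124. The rule takes the lowest drought and the highest control library, so leaving out a leaf 24 h library can only loosen the 24 h condition.

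**Figure D1:**
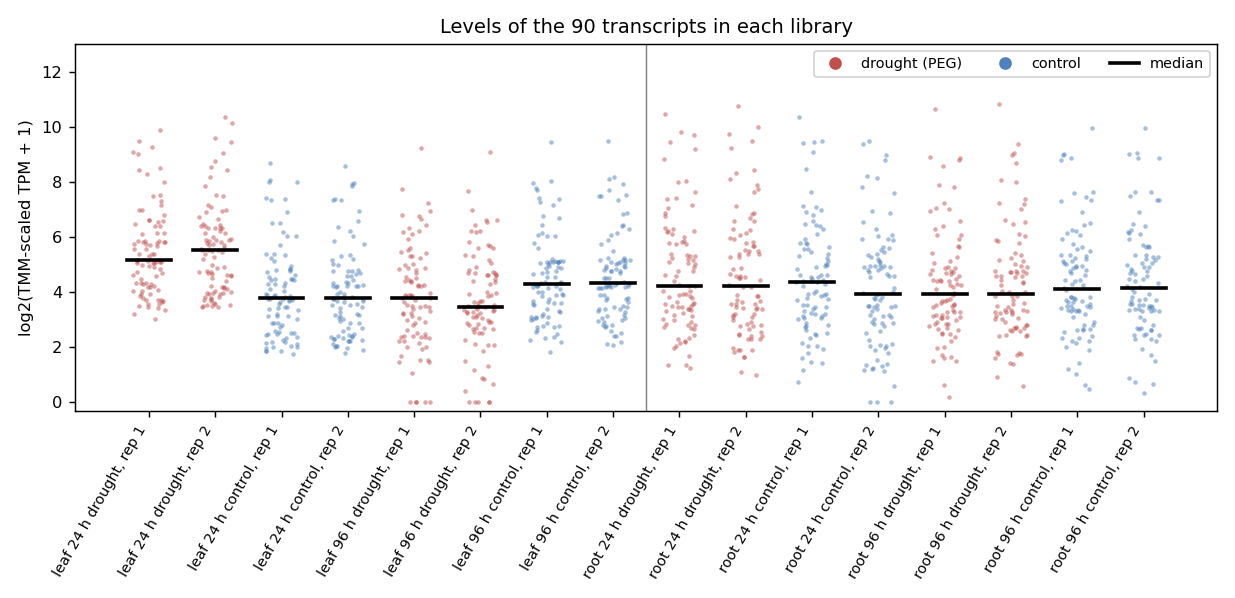
Level of each of the 90 transcripts (points, log2 of TMM-scaled TPM + 1) in each of the 16 libraries, with drought in red, controls in blue and the median as a black bar. The leaf 24 h drought libraries have the highest medians, and points at 0 occur only in the leaf 96 h drought libraries and root 24 h control replicate 2.

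TRINITY_DN48473_c4_g4 had the largest leaf 24 h ratio. It stood at 98.2 and 122 in leaf 24 h drought, against 13.6 and 17.0 in leaf 24 h control. At 96 h it was listed at 0 in both drought libraries, against 11.1 and 26.9 in the controls. Thus it was the member with both the highest 24 h ratio and the lowest 96 h ratio, 0.050. In root it stood at 10.2 and 9.64 in 24 h drought, against 19.8 and 0 in 24 h control, and at 1.80 and 2.37 in 96 h drought, against 1.03 and 0.593 in 96 h control. Its 3 zeros fell in the 3 libraries dominated by the pair, and the part of these libraries in its pattern was not tested. The transcript in place 76 was likewise at 0 in those 3 libraries and in no other.

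TRINITY_DN48945_c6_g3 was the most abundant member, in place 45. It stood at 949 and 1299 in leaf 24 h drought, against 407 and 383 in leaf 24 h control. At 96 h it stood at 599 and 537 in leaf drought, against 689 and 719 in leaf control. The difference at 24 h is therefore 2.84-fold by group means, and at the deposited scaling drought lay below control at 96 h by a ratio of 0.807, with no overlap at either time. The direction at 96 h turned after scaling by median ratios, to a ratio of 1.18 with both drought libraries above both controls. Root levels were higher still, at 1402 and 1716 in 24 h drought, against 1298 and 710 in 24 h control, and at 1587 and 1822 in 96 h drought, against 992 and 989 in 96 h control. The groups in root overlapped at neither time.

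The next most abundant member by leaf mean, in place 19, stood at 709 and 1115 in leaf 24 h drought, against 257 and 251 in leaf 24 h control. At 96 h it stood at 100.1 and 91.9 in drought, against 217 and 244 in control. Its 96 h drought libraries thus lay below every other leaf library. In all, 11 members had a leaf mean of at least 100, 56 lay between 10 and 100, and 23 lay under 10.

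At 96 h the members were spread from far below the control to just above it. The leaf 96 h ratio was at most 0.5 for 28 members, between 0.5 and 0.8 for 25, and between 0.8 and 1.25 for 37, with a median of 0.711. It was above 1 for 10. The 12046 transcripts had a median of 0.643 and the 139 a median of 3.64. Both drought libraries lay below both controls for 59 members (65.6%), where 59.4% of the 12046 did so, and above them for 5, where 24.1% did so. These shares follow from the 96 h limit and nothing is read from them. They also moved with the scaling: after scaling by median ratios 19 members had a ratio of at most 0.5 and 35 had both drought libraries below both controls, once the pair was taken out 60 and 89, and at the same total 90 and 90. The ratios nearest to the limit were 1.24 inside and 1.27 outside.

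TRINITY_DN49867_c2_g2, in place 34, had the lowest 96 h ratio after the first, 0.150. It stood at 16.1 and 12.7 in leaf 24 h drought, against 4.66 and 3.66 in leaf 24 h control. At 96 h it stood at 0 and 0.335 in leaf drought, against 6.34 and 7.25 in leaf control. Its drought libraries were thus the highest of the leaf at 24 h and the lowest at 96 h. In root the drought libraries lay below the controls at both times, with 3.62 and 2.75 in 24 h drought, against 4.68 and 6.65 in 24 h control, and 4.17 and 5.06 in 96 h drought, against 6.52 and 6.91 in 96 h control.

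TRINITY_DN49618_c6_g3, in place 75, had the ratio next to it, 0.167. It stood at 40.5 and 58.4 in leaf 24 h drought, against 16.4 and 19.1 in leaf 24 h control, and at 3.50 and 0.871 in leaf 96 h drought, against 19.5 and 16.6 in leaf 96 h control. Both leaf control groups were alike in level while drought was above them at 24 h and below them at 96 h. In root it stood at 11.1 and 7.48 in 24 h drought, against 29.4 and 6.36 in 24 h control, and at 11.1 and 9.15 in 96 h drought, against 18.2 and 19.3 in 96 h control. The root groups overlapped at 24 h, where the controls were far apart.

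**Figure D2:**
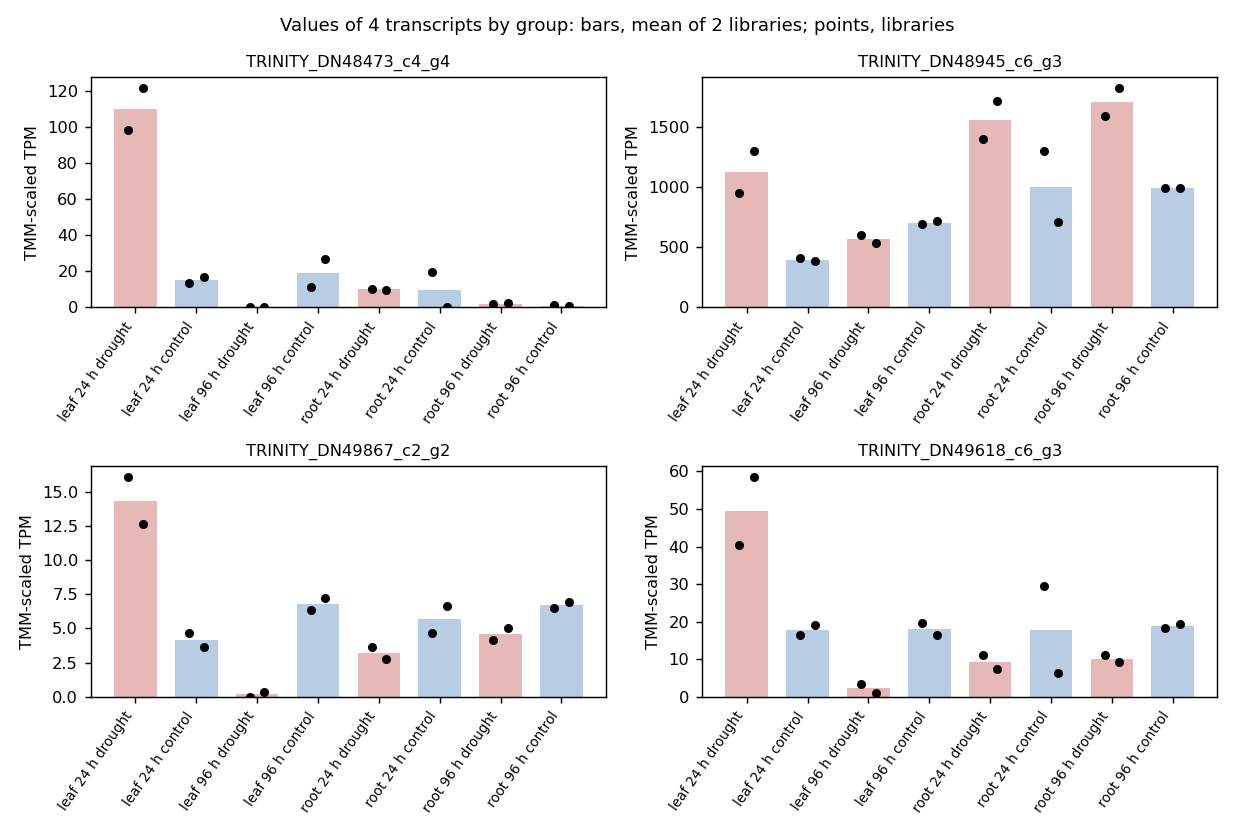
Values (TMM-scaled TPM) of the 4 named transcripts in the 8 groups; bars are means of 2 libraries (pink, drought; pale blue, control) and black points the libraries. Leaf 24 h drought is above leaf 24 h control in each panel, and leaf 96 h drought is below leaf 96 h control in each, which turns for TRINITY_DN48945_c6_g3 after scaling by median ratios.

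**Figure D3:**
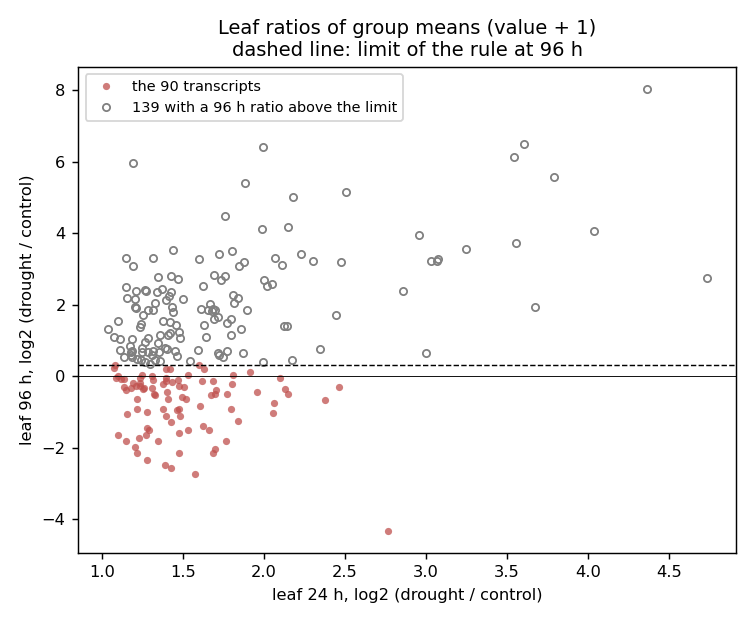
Leaf drought to control ratios of group means with 1 added, on a log2 scale, at 24 h (x) and 96 h (y), for the 90 transcripts (red) and the 139 that met the other conditions but not the 96 h limit (open circles); the dashed line is that limit. The 90 lie at or below the line by choice, and 1 of them lies far under the rest at 96 h.

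A 96 h ratio near 1 can be reached in more than one way, and the 90 divided accordingly. In 59 members the leaf 96 h drought mean was at most 1.25 times the leaf 24 h control mean, and in 11 of these 59 it exceeded that mean. Their median ratio to the 24 h control was 0.612. Of the 12046, 77.2% fell in this class. In the other 31 the 96 h drought mean was above that, with a median of 1.54. The 96 h control mean was higher too, by a median of 1.72 over the 24 h control. The rule's limit of 1.25 and the division at 1.25 fix in advance that it was higher in all 31, so nothing is read from this direction. For 28 of these 31 the 96 h control was more than 1.25 times the 24 h control. Over all members, both leaf 96 h drought libraries lay below both leaf 24 h controls for 40 and above them for 30, where 60.9% and 23.0% of the 12046 did so. The 59 and 31 became 44 and 46 after scaling by median ratios, 84 and 6 once the pair was taken out, and 89 and 1 at the same total. The division at 1.25 was made after the values were seen and carries no test.

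Higher 96 h controls were common in the whole set. Both leaf 96 h control libraries lay above both leaf 24 h control libraries for 70 members (77.8%) and below them for 14 (15.6%), where 39.7% and 43.9% of the 12046 did so. The median ratio of 96 h control to 24 h control was 1.40 in the 90, 0.979 in the 139 and 0.980 in the 12046. The rule asks for 24 h controls well under 24 h drought and limits how far 96 h controls may lie below 96 h drought, so it favours this direction by itself. Against their own level at 24 h, the leaf drought libraries at 96 h were lower, with a median ratio of 0.300, where the 12046 had 0.634. For 88 members both 96 h drought libraries lay under both 24 h drought libraries, where 61.1% of the 12046 did so, and the rule's high 24 h drought favours this.

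At the deposited scaling, the transcript in place 81 shows the second way in its extreme form. It stood at 111 and 85.8 in leaf 96 h drought, against 103 and 113 in leaf 96 h control. At 24 h it stood at 28.7 and 16.9 in leaf drought, against 5.71 and 7.77 in leaf control. It is the only member whose leaf 96 h drought mean exceeded its 24 h drought mean, by 4.17-fold. Its leaf 96 h control was 14.0 times its 24 h level, and drought and control overlapped at 96 h. The transcript in place 6 is a milder case, at 36.7 and 28.9 in leaf 96 h drought, against 30.0 and 30.1 in leaf 96 h control. At 24 h it stood at 53.2 and 52.4 in leaf drought, against 13.9 and 12.5 in leaf control. Scaling by median ratios raised the leaf 96 h drought libraries and lowered the leaf 96 h controls. TRINITY_DN48945_c6_g3, for example, moved to 814 and 742 in drought, against 642 and 672 in control. The same factors put both leaf 96 h drought libraries of places 81 and 6 above both controls, so their overlap belongs to the deposited scaling.

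**Figure D4:**
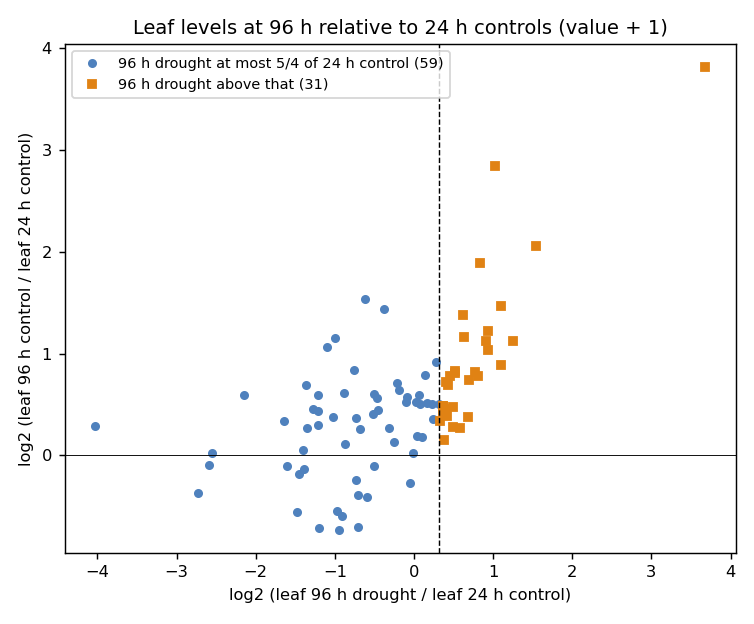
Leaf 96 h drought (x) and leaf 96 h control (y), both relative to the leaf 24 h control mean with 1 added, on log2 scales, for the 90 transcripts. Blue circles are the 59 at or under 1.25 times the 24 h control and orange squares the 31 above it. Every square lies above 0 on the y axis, which the 96 h limit of the rule and this division fix in advance.

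In the median, the members were expressed in root at levels like those in leaf, while single members differed. Medians of the group means, in the same units, were 19.1 in root 24 h drought, against 16.6 in root 24 h control, and 14.6 in root 96 h drought, against 16.1 in root 96 h control. In leaf they were 39.7 in 24 h drought, against 12.9 in 24 h control, and 10.7 in 96 h drought, against 19.2 in 96 h control. From high to low the order was leaf 24 h drought, leaf 96 h control, root 24 h drought, root 24 h control, root 96 h control, root 96 h drought, leaf 24 h control and leaf 96 h drought. By library, the root 24 h control replicates had medians of 19.8 and 14.2, which reach across those of leaf 96 h control (18.8 and 18.9), root 24 h drought (17.7 and 17.7) and root 96 h control (16.3 and 16.8). Leaf 96 h drought, at 12.9 and 10.1, also reached across leaf 24 h control, at 12.6 and 12.8. By transcript, root 24 h control was at least 2 times leaf 24 h control for 26 members (28.9%), with 1 added to values. It was at most 0.5 times leaf 24 h control for 10 (11.1%). Of the 12046, 9.97% and 27.8% were so. The rule asks for leaf 24 h controls well under leaf 24 h drought, which bears on these counts.

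For 60 members (66.7%) leaf 24 h drought was the highest of the 8 groups, where 13.4% of the 12046 had it highest, and the rule favours this. Root 24 h drought was the highest for 22 (24.4%), where 18.8% of the 12046 had it highest. The remaining 8 had their highest mean in leaf 96 h control (3), root 24 h control (3), root 96 h drought (1) or root 96 h control (1). The root mean exceeded the leaf mean in 38 members (42.2%) and in 46.1% of the 12046. Root drought to control ratios had a median of 1.25 at 24 h and 0.889 at 96 h inside the limits of the rule. Both root drought libraries lay above both controls for 41 members at 24 h and below them for 10, where 40.2% and 21.2% of the 12046 did so. At 96 h they lay above both controls for 26 and below them for 46, where 39.3% and 47.2% did so. The root limits of the rule bear on these counts.

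The rule sets no limit on the change with time inside root itself, and this change was tested. All 8 root libraries did enter the rule, through the root minimum and the root limits. In drought root, 27 of the 90 were lower at 96 h than at 24 h and 7 were higher (limma, adjusted p under 0.05), and 56 passed in neither direction. Among the 12045 tested transcripts above the level minimums 17.0% were lower and 16.4% higher, and over all 34082 tested 10.3% and 16.6%. The median log2 fold change was −0.36 in the 90, −0.10 in the 139 and 0.04 in the transcripts above the level minimums. Of the 139, 27 (19.4%) were lower and 17 (12.2%) higher. The 139 met the same root limits as the 90, which the 12045 did not have to meet. Whether the shares differ between the sets was not tested.

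The count of lower members in drought root depended on single libraries. Leaving out root 24 h drought replicate 1 or 2 gave 13 or 10, and leaving out root 96 h drought replicate 1 or 2 gave 5 or 8. It was 13 without either root 96 h control library and 45 without either root 24 h control library. The count of higher members was 4 without root 24 h drought replicate 2 or either root 96 h control library, 3 without either root 96 h drought library and 12 without either root 24 h control library. Control libraries enter the drought comparison only through the estimate of spread, which all root groups share. With a library left out, calls among the transcripts above the level minimums moved too. The members' share of lower calls fell below theirs without root 96 h drought replicate 1. It was only slightly above theirs without root 24 h drought replicate 2 or root 96 h drought replicate 2, and further above without any other root library. Without any 1 of the drought root libraries, the members' median log2 fold change was −0.46 to −0.34, against 0.02 to 0.06 above the level minimums. Each such fit leaves a group with 1 library, so no conclusion is drawn from these shares. With libraries scaled to the same total 1 member was lower and 1 higher, where 0.822% and 1.21% of the transcripts above the level minimums were.

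In control root, 16 of the 90 were higher at 96 h than at 24 h and 9 lower (limma, adjusted p under 0.05), and 65 passed in neither direction. Above the level minimums 22.3% were higher and 8.09% lower, and over all transcripts tested 28.9% and 8.05%. The median log2 fold change was 0.04 in the 90 and 0.30 in the transcripts above the level minimums. The count of higher members was 31 without root 24 h control replicate 1, 10 without either root 96 h drought library and 7 without either root 96 h control library. Lower members numbered 14 when root 24 h control replicate 1 was left out and 21 when replicate 2 was. They numbered 4 without either root 96 h drought library, and 1 or 0 when root 96 h control replicate 1 or 2 was left out. With the pair removed 21 were lower and 10 higher. All 90 passed the filter on low values in both comparisons.

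**Figure D5:**
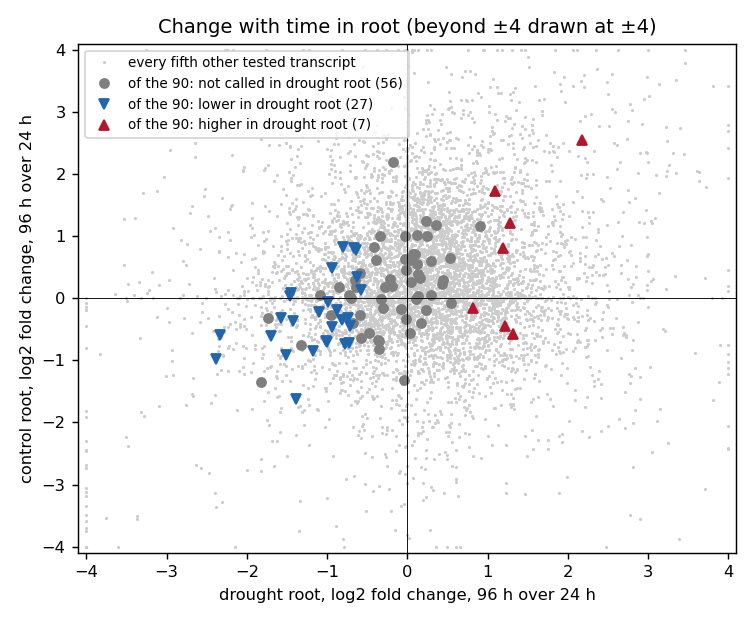
Log2 fold change from 24 h to 96 h (96 h over 24 h, on log2(value + 1)) in drought root (x) and control root (y), for the 90 transcripts by their call in drought root and for a subset of the other tested transcripts (small grey dots). Triangles pointing down, the 27 lower calls, outnumber the 7 higher calls.

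The fold changes of the 2 comparisons share no library, but their SEs rest on the same estimate of spread, from all root libraries. The root limits of the rule also hold drought and control within 2-fold of each other at both times. A like direction in both comparisons is therefore partly set by the choice. The transcript in place 12 had the largest rise in both. It stood at 8.70 and 8.86 in root 96 h drought, against 1.38 and 0.988 in root 24 h drought (log2 fold change 2.17, SE 0.24, limma adjusted p = 0.00288). In control root it stood at 9.58 and 10.2 at 96 h, against 1.25 and 0.525 at 24 h (2.55, SE 0.24, limma adjusted p = 0.00056). Leaf controls of this transcript were also higher at 96 h, at 34.2 and 35.3, against 4.06 and 3.92 at 24 h. This and the other transcripts given by place for their root values were singled out after the values were seen.

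The largest fall in drought root was that of the transcript in place 81, to 0.154 and 0.496 at 96 h, against 7.07 and 4.84 at 24 h (log2 fold change −2.39, SE 0.62, limma adjusted p = 0.0386). The call was lost without either root 24 h drought library, either root 96 h drought library or either root 96 h control library (limma adjusted p 0.123 to 0.184). Its leaf libraries, by contrast, were higher at 96 h than at 24 h. The largest fall in control root was that of place 54, to 0.566 and 0.682 at 96 h, against 5.73 and 2.74 at 24 h (−1.63, SE 0.34, limma adjusted p = 0.0131). This call was lost without root 96 h control replicate 1 or 2 (limma adjusted p 0.104 and 0.0918).

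Members called in opposite directions in drought and control root numbered 4. The clearest was in place 16. It stood at 41.8 and 42.0 in root 96 h drought, against 71.3 and 76.5 in root 24 h drought (log2 fold change −0.80, SE 0.11, limma adjusted p = 0.00525). In control root it stood at 75.1 and 74.9 at 96 h, against 42.7 and 40.9 at 24 h (0.83, SE 0.11, limma adjusted p = 0.00222). No libraries overlapped in either comparison, and both calls held with each root library left out.

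In leaf the same transcript stood at 309 and 287 in 24 h drought, against 89.2 and 94.7 in 24 h control, and at 68.2 and 51.2 in 96 h drought, against 261 and 277 in 96 h control. Both tissues thus had drought above control at 24 h and below it at 96 h, with root inside the 2-fold limits. Places 48 and 65 had the same signs in root, lower with time in drought and higher with time in control. The drought call of place 48 was lost without root 24 h drought replicate 2 or either root 96 h drought library (limma adjusted p 0.0684 to 0.0864). That of place 65 was lost without any 1 of the root 24 h drought, root 96 h drought or root 96 h control libraries (limma adjusted p 0.0699 to 0.130), and its control call without either root 96 h control library (0.0586 and 0.0662). Place 26 had the opposite signs, higher in drought root (1.31, SE 0.16, limma adjusted p = 0.00397) and lower in control root (−0.58, SE 0.16, limma adjusted p = 0.0397), and its control call was lost without root 24 h control replicate 2, either root 96 h drought library or either root 96 h control library (limma adjusted p 0.0642 to 0.145). It was also lost with no filter on low values (limma adjusted p = 0.0566), with median-ratio size factors (0.0557), with spread from the 4 compared libraries alone (0.0964) and with the replicate block (0.0711), and it had the opposite sign at the same total. With no filter the drought calls of places 65 and 81 were lost too (limma adjusted p = 0.0514 and 0.0783).

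None of the 4 named transcripts passed the test in root with time at the settings reported. TRINITY_DN48473_c4_g4 had log2 fold changes of −1.83 in drought root and −1.34 in control root (limma adjusted p = 0.380 and 0.472). Without root 24 h control replicate 1, which leaves its value of 0 as the only 24 h control, the change in control root was 0.85 (limma adjusted p = 0.0245), and without replicate 2 it was −3.53 (limma adjusted p = 0.000868). Its change in drought root, −1.83, passed without either root 24 h control library (limma adjusted p = 0.00181 and 0.00167) and with spread taken from the 4 compared libraries alone (limma adjusted p = 0.0186). TRINITY_DN49618_c6_g3 passed in control root without root 24 h control replicate 1, at 1.42 (limma adjusted p = 0.00677). The other named transcripts changed by at most 0.43 on this scale (limma adjusted p 0.232 to 0.988).

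The identifiers place transcripts in components of the assembly, which gather sequences that share stretches, such as close paralogs or pieces of 1 gene, and reads may be divided among them. The 90 came from 88 components, so few members shared a component. Places 31 and 57, and places 58 and 64, shared the first part of the identifier but not the component. A component with places 9 and 28 and a component with places 40 and 82 held 2 members each. Place 40 stood at 46.7 and 56.5 in leaf 24 h drought, against 15.3 and 19.1 in leaf 24 h control, and its partner in place 82 at 13.5 and 12.3, against 4.75 and 5.55. Both partners thus had a like ratio at a different level.

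Another transcript of the same component was in the table for 59 members, 141 in all, of which 34 had a leaf mean of at least 5. Of these 34, 6 met the leaf 24 h condition, where 6.92% of the 13323 transcripts at that leaf level did so. For 20 of the 34 (58.8%) both leaf 24 h drought libraries lay above both controls, where 41.6% of the 13323 did so. The median 24 h ratio of group means was 1.45 in the 34 and 1.03 in the 13323. Partners may share reads with a member, and the part of this in their values was not tested.

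The replicates of the members were closest in root 96 h control, where the SD of the 2 libraries was 2.52% of the mean in the median, and in leaf 24 h control, where it was 4.67%. It was 10.3% in leaf 24 h drought, 18.4% in leaf 96 h drought and 26.0% in root 24 h control. The wide groups include the 3 libraries dominated by the pair. In the leaf 96 h drought libraries 5 members were at 0 in replicate 1 and 5 in replicate 2, and in root 24 h control replicate 2 there were 3. No member was at 0 in any other library. In root 24 h control the ratio of replicate 2 to replicate 1 had a median of 0.756 in the 28 members with a leaf 96 h ratio of at most 0.5, 0.764 in the other 62 and 0.740 in the 12046.

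Scaling between libraries bears on the 96 h leaf ratio. With median-ratio size factors, 67 of the 90 were at or under the 96 h limit and 65 met the 24 h condition, and the median 96 h ratio was 1.01, against 0.915 for the transcripts above the level minimums. With the pair removed and totals made equal, all 90 met both of these conditions, though 8 failed another, and the median was 0.428, against 0.389. The ratio of 96 h to 24 h leaf controls was less mobile, with medians of 1.36 and 1.54 in the same order, against 0.957 and 1.09. In root, the median log2 change with time over all transcripts tested was 0.12 in drought and 0.36 in control at the deposited scaling, 0 and 0.30 after scaling by median ratios, 0.23 and 0.13 once the pair was taken out, and 0.21 and 1.19 at the same total. The members' median was −0.36 and 0.04 at the deposited scaling, −0.60 and −0.06 after scaling by median ratios, −0.21 and −0.27 once the pair was taken out, and −0.22 and 1.43 at the same total. The members' median in drought root was below that of all tested transcripts under each of these 4 scalings, and in control root under each except the same total. It was below that of the transcripts above the level minimums under each of the 4, in drought and in control root. In control root at the same total it was 1.43, against 1.64. The differences were not tested.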

How the data were processed

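Values are the deposited signal per transcript, TPM multiplied by 1 TMM factor per library as read from the table's name and values. Low values (under 0.5, zeros aside) were whole multiples of 0.01 TPM times that factor in 100% of cases, within 0.0006, in each library. The submitters' processing notes list FastQC 0.11.5, Trimmomatic 0.35, RSEM and edgeR without saying what each did. Which aligner and assembler version served is not given in the sources used here. Identifiers have the form of Trinity components. Stem samples (2 of 18) were not analysed here.

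Root change with time was fitted with limma 3.58.1 (R 4.3.3) on log2(value + 1) over 8 root libraries, a coefficient for each group, a robust eBayes step with an intensity trend, Benjamini-Hochberg adjustment at 0.05, and a filter of at least 1 in at least 2 libraries. All root groups shared the same estimate of spread for a transcript, so both comparisons drew on it. Fold changes on this scale understate changes of low transcripts. The labels call the replicates biological. A p-value here reflects only how far these samples differ from each other. On simulated data with 34082 transcripts, 33% (control) and 34% (drought) of changes of 2 log2 units were recovered. Of changes of 1 unit, 1% and 2% were recovered, with 100 of each size and none in the wrong direction. Far more transcripts were called in the data, with 9847 higher and 2743 lower in control root. The adjustment was therefore stricter in the simulation, and these shares cannot give the recovery in the data.

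The named transcripts were those with the largest 24 h ratio, the highest leaf 24 h drought mean and the 2 lowest 96 h ratios not yet named. The members and this rule were chosen with earlier results of these data known. Division of the leaf 96 h levels and the members given by place were chosen after values were seen. Alternatives were other added constants, filters, scalings, estimates of spread, a replicate block and single libraries left out.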

Additional observations from a re-analysis of the deposited data

How the results depend on the processing

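The rule found 90 transcripts at the deposited scaling, 292 with the pair removed (82 of the 90 among them, 28.1% of that list), 160 with libraries scaled to the same total (37 of the 90) and 62 with median-ratio size factors (51 of the 90). With an added constant of 5 it found 79, of which 48 were shared. With single libraries left out it found 78 to 178 (the highest without leaf 24 h drought replicate 1). With replicate 1 or replicate 2 alone in every group it found 198 and 188, which held 77 and 64 of the 90. Fewer leaf 24 h libraries can only loosen the 24 h condition. The median leaf 24 h log2 ratio of 1.42 was 1.59 with the pair removed, 1.62 at the same total, 1.22 with a constant of 5, and 1.29 to 1.47 with single libraries left out. The median leaf 96 h log2 ratio of −0.49 was 0.020 with size factors from median ratios, −1.22 once the pair was removed, −3.15 at the same total, −0.37 with a constant of 5, and −0.69 to −0.46 with single libraries left out. The causes were not tested, except that the same total keeps the pair and by construction lowers all else in the 3 libraries it dominates.

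In control root, 10 were higher and 21 lower with the pair removed, 3 and 0 at the same total, and 10 and 2 with spread from the 4 compared libraries alone. With single libraries left out, 7 to 31 were higher and 0 to 21 lower. In drought root, 11 were higher with the pair removed, and 1 was higher and 1 lower at the same total. With single libraries left out, 3 to 12 were higher and 5 to 45 lower. The other alternatives, the replicate block aside, kept these 4 counts within 1.5 times. Replicate numbers are shared by the groups in name only, and replicate differences correlated between root groups at −0.06 to 0.08. With the replicate block, 13 were higher and 5 lower in control root, and 7 and 20 in drought root.

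The log2 fold change with time of TRINITY_DN48945_c6_g3 was −0.059 in control root and −0.12 in drought root with median-ratio size factors, −0.27 in control root with the pair removed, −0.39 to 0.48 in control root with single libraries left out (lowest without root 24 h control replicate 2) and −0.013 to 0.28 in drought root (lowest without root 24 h drought replicate 1). That of TRINITY_DN49618_c6_g3 was −0.098 in drought root with median-ratio size factors. With single libraries left out it was −0.13 to 0.38 there (lowest without root 24 h drought replicate 2) and −0.62 to 1.42 in control root (lowest without root 24 h control replicate 2). That of TRINITY_DN49867_c2_g2 was −0.044 in control root with the pair removed. That of TRINITY_DN48473_c4_g4 was −3.53 to 0.85 in control root with single libraries left out, the highest without root 24 h control replicate 1. The control root value of place 26 was 1.01 at the same total. Calls also lost beside those told above were both calls of place 48 with the pair removed (limma adjusted p 0.0697 in drought and 0.0612 in control) and the drought call of place 81 there (0.0552), the control calls of places 54 and 65 with spread from the 4 compared libraries alone (0.0788 and 0.0720), and the drought call of place 65 with the replicate block (0.0535). At the same total every call of places 16, 48 and 65, the control call of place 54 and the drought call of place 26 were lost. Coarse low values in the 3 dominated libraries limit the 96 h ratios of low members.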
